A study of Mus musculus with 4 samples.

Results

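The common gamma-chain genes described here were the 9 rows of the count matrix, among 55450 genes, whose symbols were Il2ra, Il2rb, Il2rg, Il7, Il7r, Il15, Il15ra, Il4ra and Il21r. They hold 2 cytokines (Il7 and Il15) and 7 receptor chains, and together they gave 93548 unique molecular identifiers (UMIs, each standing for 1 captured transcript) in 32133 kept cells. The cells came from tumours grown from 4T1, a mouse mammary carcinoma cell line, implanted as 1000000 cells in the flank of female BALB/c mice aged 6 to 8 weeks. The mice received an intravenous injection on day 7 of either PBS or TIOs, which are macrophages loaded with light-responsive nanoparticles and then killed in liquid nitrogen. By the study's methods, near-infrared light (NIR) of 980 nm at 1.0 W cm-2 followed either injection, in daily sessions of 5 min from day 8 to day 10. This intensity is the one given for flow cytometry of tumour lymphocytes. The study's antitumour methods give a lower one, and its single-cell methods state no light setting or day. The tumours were taken on day 13, and CD45+ cells were sorted for 10x Genomics single-cell RNA sequencing.

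Of the 4 samples, 2 were given PBS with NIR and 1 was given TIOs with NIR. The last had a title and a protocol that name different treatments and was put in no group. Its treatment, light included, is therefore not settled. The deposited matrix joins 4 libraries, told apart by a barcode suffix that no source used here ties to a sample. The libraries are therefore called library 1 to 4, no treatment is compared, and each value is given by cell type and by library with no test. The number of mice behind each sample was not given in the sources used here.

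Cytokines of this family signal through receptors that share the chain encoded by Il2rg, together with a partner chain that sets which cytokine is bound. The receptors pass their signal through the kinases JAK1 and JAK3 to STAT factors, chiefly STAT5 for interleukin (IL)-2, IL-7 and IL-15, STAT6 for IL-4 and STAT3 for IL-21. The family is known for the growth and survival of T and NK cells, while IL-4 also acts on macrophages and on cells that lack the shared chain, through a receptor of Il4ra with Il13ra1.

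The receptor chains fall into 2 kinds by sequence. A run of 5 codons for tryptophan, serine, any residue, tryptophan and serine mark the cytokine receptor family close to the membrane, and they were found once in the coding sequence of 5 of the 7 receptor genes. The stretches are shown because they separate these chains from Il2ra and Il15ra, in which the motif had 0 matches in 268 and 263 codons. Those 2 genes encode the alpha chains of the IL-2 and IL-15 receptors. Capitals mark the 15 bases of the motif on the coding strand, and 15 bases are given on each side of it.
Il2rb: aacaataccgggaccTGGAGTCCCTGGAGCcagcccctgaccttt
Il2rg: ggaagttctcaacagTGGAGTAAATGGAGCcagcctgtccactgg
Il7r: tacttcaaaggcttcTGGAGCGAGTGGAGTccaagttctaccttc
Il4ra: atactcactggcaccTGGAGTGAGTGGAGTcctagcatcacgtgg
Il21r: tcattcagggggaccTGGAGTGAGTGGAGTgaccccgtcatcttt

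On GRCm38, the Il2rb motif lies at chr15:78485763-78485777 (minus strand, exon 7, codons 221 to 225). The Il2rg motif lies at chrX:101266215-101266229 (minus strand, exon 5, codons 238 to 242), and the Il7r motif at chr15:9511151-9511165 (minus strand, exon 5, codons 218 to 222). The Il4ra motif lies at chr7:125571554-125571568 (plus strand, exon 7, codons 213 to 217) and the Il21r motif at chr7:125628998-125629012 (plus strand, exon 6, codons 214 to 218). Il4ra and Il21r share the same 15 motif bases and are direct neighbours on chromosome 7, with 23955 bases between them. Il2ra (chr2:11642807-11693193) and Il15ra (chr2:11705290-11734317), both on the plus strand, are neighbours as well, with a gap of 12097 bases. The cytokine genes lie on the minus strand at chr3:7569994-7613760 for Il7 and chr8:82331632-82403222 for Il15.

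Kept cells numbered 6783 to 8889 per library with a median of 2642 to 11698 UMIs, and 95 barcodes occurred in 2 libraries. Marker genes placed 27513 cells (85.6%) into 21 gates, and cell type names below stand for these gates. Gated cells were uneven between libraries: library 1 held 3897 of the 4163 tumour or epithelial cells and 238 of the 256 CD8 T cells, and library 3 held 184 of the 220 mature dendritic cells. The CD45 sort was not visible in all gates, since Ptprc, the gene of CD45, stood at 18.1 CPM (UMIs scaled to 1000000 over a gate) in 4337 fibroblasts and 11.4 CPM in tumour or epithelial cells, against 1336 CPM in NK cells. A gate of 44 cells set by Gata3, Il1rl1, Il5, Il17rb and Rnf128 held T cell markers at 1599 CPM, with Cd3e in 22.7% and Foxp3 in 11.4% of its cells, and is called the Gata3 Il1rl1 gate. NK cells held T cell markers at 850 CPM in those with a UMI of Il2rb. The 72 basophils or mast cells held T cell markers at 547 CPM, with Cd3e in 27.8% of them. Fibroblasts held T cell markers at 164 CPM, with Cd3e in 40.1% of them at a median depth of 26982 UMIs. Keratinocytes held neutrophil markers at 22108 CPM. Intervals are exact 95% Poisson (CPM) or Clopper-Pearson (shares of cells) intervals and cover counting error only.

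**Figure D1:**
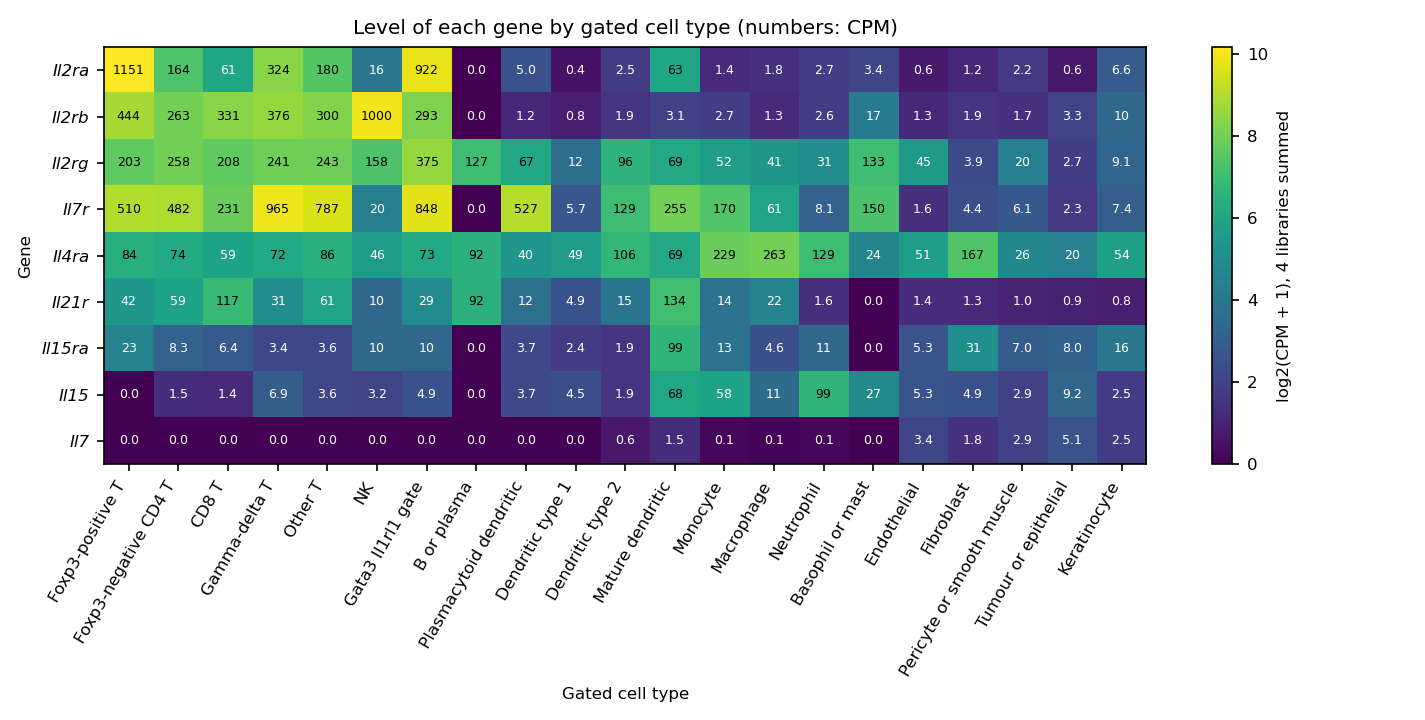
Heat map of the level of each gene (rows) in each gated cell type (columns), coloured by log2(CPM + 1) over the 4 libraries summed, with CPM printed in each cell. Il2ra is brightest in Foxp3-positive T cells (1151 CPM), Il2rb in NK cells (999.9 CPM), Il4ra in macrophages (263 CPM) and Il15 in neutrophils (99.0 CPM), and Il7 stays at or under 5.12 CPM.

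The shared chain was found across lymphoid and myeloid gates and in endothelial cells, and was low in fibroblasts and tumour cells. Il2rg stood at 258 CPM (236 to 282) in Foxp3-negative CD4 T cells, at 243 in other T cells, 241 in gamma-delta T cells, 208 in CD8 T cells, 203 in Foxp3-positive T cells and 158 in NK cells. The intervals of neighbours in this order overlapped throughout. In Foxp3-negative CD4 T cells the 4 libraries gave 272, 244, 271 and 250.0 CPM, so this gate differed little between libraries. In Foxp3-positive T cells the value was 422 CPM in library 1, 138 in library 2 and 197 in library 3, where library 1 is high. The highest pooled level, 375 CPM (296 to 469), was in the Gata3 Il1rl1 gate. Il2rg lies inside Gm20489 (chrX:101261405-101269023), a protein-coding gene on the same strand that had 0 UMIs. How reads that match both genes were counted was not stated.

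Outside lymphocytes Il2rg stood at 133 CPM in basophils or mast cells, 96.1 in type 2 dendritic cells, 51.6 in monocytes, 40.6 in macrophages and 31.4 in neutrophils. The macrophage value was nearly level between libraries, at 39.2, 39.4, 39.3 and 45.8 CPM. Type 1 dendritic cells had 11.8 CPM, with the highest library at 18.5, below the lowest library value of type 2 dendritic cells (87.9). Endothelial cells held Il2rg at 44.6 CPM (39.5 to 50.2), with 45.4, 44.1 and 46.3 in libraries 1, 2 and 3, and pericytes or smooth muscle cells stood at 20.1. Fibroblasts and tumour or epithelial cells, which should lack the chain, stood at 3.89 and 2.75 CPM. A UMI of Il2rg was found in 4.83% of tumour or epithelial cells at a median depth of 19344 UMIs, against 62.6% of Foxp3-negative CD4 T cells at 4674. Because monocytes and macrophages were far more numerous, they held 37.0% of all Il2rg UMIs and the T, NK and Gata3 Il1rl1 gates held 19.5%.

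**Figure D2:**
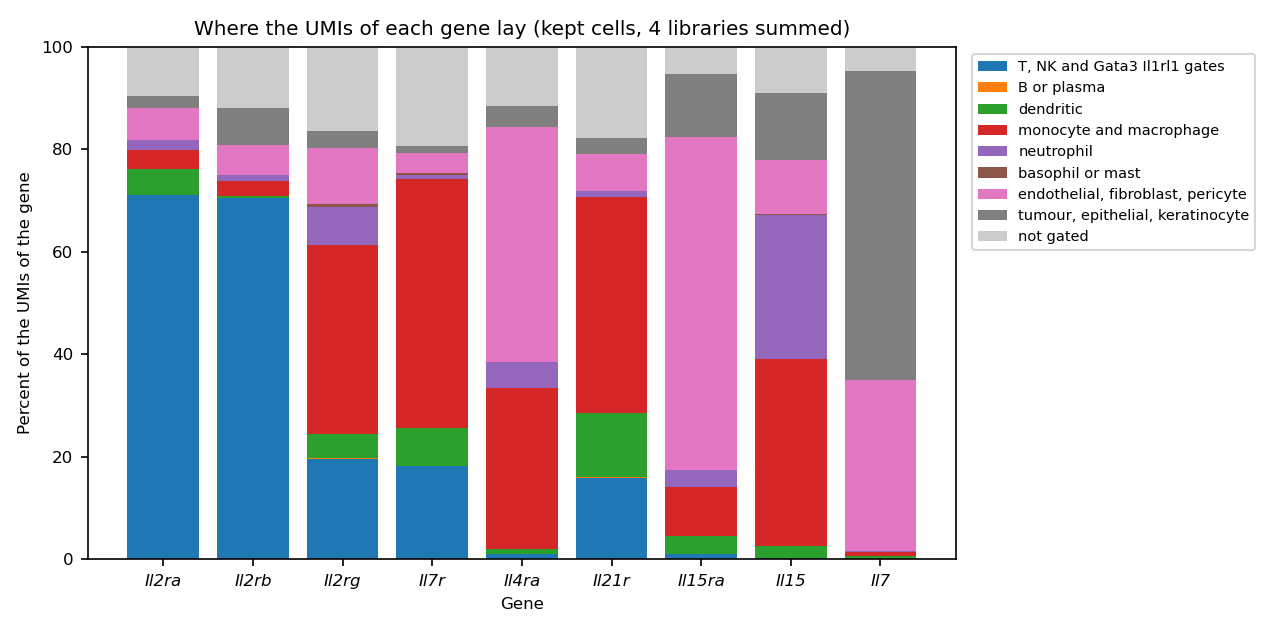
Stacked bars of the percent of the UMIs of each gene (y axis) that lay in each group of gates, over all kept cells of the 4 libraries. The T, NK and Gata3 Il1rl1 gates held 71.1% of Il2ra and 70.6% of Il2rb UMIs, endothelial cells, fibroblasts and pericytes held 65.2% of Il15ra, and tumour, epithelial and keratinocyte gates held 60.4% of Il7.

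Il2ra, the alpha chain that raises the affinity for IL-2 and marks regulatory and activated T cells, had its highest pooled level in Foxp3-positive T cells. It stood at 1151 CPM (1081 to 1224) in these 132 cells, with 261 CPM in library 1, 1097 in library 2 and 1444 in library 3, so library 1 is low. Gamma-delta T cells led library 1 at 268 CPM (178 to 388), with an interval that overlapped that of Foxp3-positive T cells (162 to 399). A few cells gave much of this: the 7 richest cells held 35.7% of its UMIs in the gate, up to 93 in 1 cell. The pooled value was 1240 CPM without library 1 and 936 without library 3.

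The Gata3 Il1rl1 gate followed at 922 CPM (795 to 1063), then gamma-delta T cells at 324, other T cells at 180.0 and Foxp3-negative CD4 T cells at 164. The last 2 overlapped in their intervals. Foxp3-negative CD4 T cells gave 150.2, 193, 150.5 and 165 CPM in the 4 libraries. The Foxp3-positive cells of library 4, only 15 in number, stood at 895 CPM (695 to 1135). In each of the 4 libraries the Foxp3-negative CD4 T cells were thus below the Foxp3-positive cells. The intervals of these gates overlapped in library 1 and were apart in libraries 2, 3 and 4. CD8 T cells had 61.5 CPM and NK cells 16.0. A UMI of Il2ra was found in 78.0% of Foxp3-positive T cells (52.7% after thinning each cell to 1000 UMIs), against 1.06% of tumour or epithelial cells, which should lack it.

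Mature dendritic cells (Ccr7, Fscn1 and Ccl22) also held Il2ra, at 63.3 CPM (52.6 to 75.4) and 60.8 in library 3. Type 1 and type 2 dendritic cells stood at 0.407 and 2.54 CPM. T cell markers were higher in the 54 mature dendritic cells with a UMI of Il2ra (95.4 CPM) than in the 166 without it (18.7 CPM), with 0 of the 8 markers at 0. The part of these markers in the result was not tested.

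Il2rb, the beta chain used by both IL-2 and IL-15, led in NK cells at 999.9 CPM (945 to 1057). The libraries with at least 20 NK cells gave 691 CPM in library 1, 1232 in library 3 and 1063 in library 4, each the highest of its library. Foxp3-positive T cells followed at 444 CPM, gamma-delta T cells at 376, CD8 T cells at 331, other T cells at 300.5, the Gata3 Il1rl1 gate at 293 and Foxp3-negative CD4 T cells at 263. Neighbours in this list overlapped in their intervals. Myeloid gates stood far lower, at 2.69 CPM in monocytes, 1.31 in macrophages and 2.58 in neutrophils. The share of cells with a UMI was 96.0% in NK cells and 5.74% in tumour or epithelial cells, although the latter were the deeper gate (median 19344 against 4307 UMIs).

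The 3 chains of the high-affinity IL-2 receptor were sought in the same cell. All of Il2ra, Il2rb and Il2rg had a UMI in 66 of 132 Foxp3-positive T cells (50.0%, 41.2 to 58.8), with 23.1%, 81.0% and 48.6% in libraries 1, 2 and 3. The median depth of these cells was 3130, 12808 and 3827 UMIs in the same order, so the library with the highest share was also the deepest. Thinned to 1000 UMIs, the pooled share was 6.11%, against 5% in the Gata3 Il1rl1 gate and 3.13% of gamma-delta T cells. It was 1.32% of other T cells, 1.18% of CD8 T cells, 0.304% of Foxp3-negative CD4 T cells and 0% of NK cells.

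Unthinned, the share with all 3 chains was 43.2% in the Gata3 Il1rl1 gate, 29.7% in gamma-delta T cells and 19.5% in Foxp3-negative CD4 T cells. CD8 T cells followed with 9.77%, other T cells with 9.66% and NK cells with 4.00%. NK cells instead held the beta and gamma chains together in 52.5% (45.3 to 59.6), close to the 57.6% of Foxp3-positive T cells, whose interval overlapped. The median depths of the 2 gates were 4307 and 3810 UMIs.

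**Figure D3:**
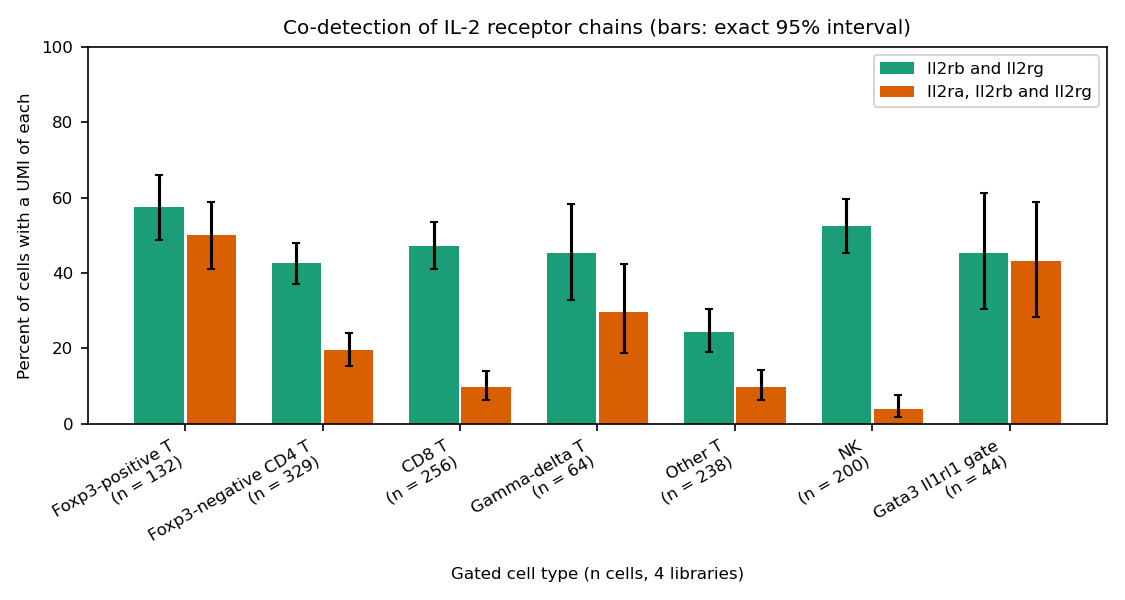
Percent of cells with a UMI of each named chain (y axis) in 7 lymphoid gates, with exact 95% intervals as bars. The pair Il2rb and Il2rg reaches 52.5% in NK cells, where all 3 chains reach 4.00%, while in Foxp3-positive T cells the values are 57.6% and 50.0%.

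Il7r, the alpha chain of the IL-7 receptor and a part of the receptor for TSLP, was high in most T cell gates and in plasmacytoid dendritic cells. Gamma-delta T cells stood at 965 CPM (855 to 1085), the Gata3 Il1rl1 gate at 848, other T cells at 787, Foxp3-positive T cells at 510.1, Foxp3-negative CD4 T cells at 482 and CD8 T cells at 231. The first 3 overlapped in their intervals. NK cells were low, with 25 UMIs in 200 cells and a UMI in 8.5% of them, and 26 B or plasma cells had 0 UMIs, which allows a level of up to 34.7 CPM.

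Library 3 was the highest in each T cell gate that could be compared. Gamma-delta T cells gave 412 CPM in library 1 and 1485 in library 3, and Foxp3-negative CD4 T cells gave 498, 153, 789 and 304 CPM in libraries 1 to 4. Gamma-delta T cells led library 3 only, and Foxp3-negative CD4 T cells led library 1. Without library 3 the gamma-delta value was 475 CPM and the Gata3 Il1rl1 gate led.

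Plasmacytoid dendritic cells, the main producers of type I interferon among blood cells, held Il7r at 527 CPM (478 to 579), with 393 in library 2 and 573 in library 4. They led both of these libraries among gates of at least 20 cells. A UMI was found in 90.5% of the 126 cells (lower bound 84.0). Their T cell markers stood at 19.0 CPM in the 114 cells with Il7r and 58.3 CPM in the 12 without it, and 4 of the 8 markers were at 0. The gate held monocyte markers at 6273 CPM, against 8573 CPM in monocytes, and the part of these in the result was not tested. Mature dendritic cells stood at 255 CPM and type 2 dendritic cells at 129, while type 1 dendritic cells had 5.69.

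Monocytes held Il7r at 170 CPM (165 to 174) and, being numerous, 38.4% of all its UMIs. The 4 libraries gave 124, 96.9, 224 and 169 CPM, all above the same library's neutrophils (6.42, 4.33, 7.19 and 16.9). A UMI was found in 34.4% of monocytes and 1.10% of neutrophils at median depths of 7920 and 1815, and after thinning to 1000 UMIs in 12.8% and 0.547%. T cell markers stood at 25.5 CPM in monocytes with Il7r and 9.02 without it, with none of the 8 markers at 0 in the pool. In libraries 1, 3 and 4 they stood at 31.8, 22.5 and 27.0 CPM with Il7r and 24.7, 9.24 and 8.15 without it. In library 2, where 4 of the 8 markers were at 0, they stood at 3.29 CPM with and 13.0 CPM without it. Their part in the result was not tested.

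Macrophages had 60.9 CPM of Il7r, with 37.6, 39.9, 107 and 137 in libraries 1 to 4, of which libraries 3 and 4 are high. Macrophages with a UMI of Arg1, the arginase gene of alternatively activated macrophages, had 45.0, 55.5, 130.5 and 140.4 CPM, and those without it 32.4, 9.98, 46.1 and 121 CPM. The ratio was over 1 in each library, from 1.16 in library 4 to 5.57 in library 2, with intervals that overlapped in library 4 and not in libraries 1, 2 and 3. Il7r was found in the same cell as Crlf2, the other chain of the TSLP receptor, in 40.2% of Foxp3-positive T cells, 35.7% of plasmacytoid dendritic cells, 29.5% of the Gata3 Il1rl1 gate, 29.4% of type 2 dendritic cells, 28.5% of CD8 T cells, 25.0% of gamma-delta T cells, 23.4% of Foxp3-negative CD4 T cells and 20.2% of monocytes. These shares were not thinned, and as the gates had median depths from 3810 to 9040 UMIs no order is read from them.

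**Figure D4:**
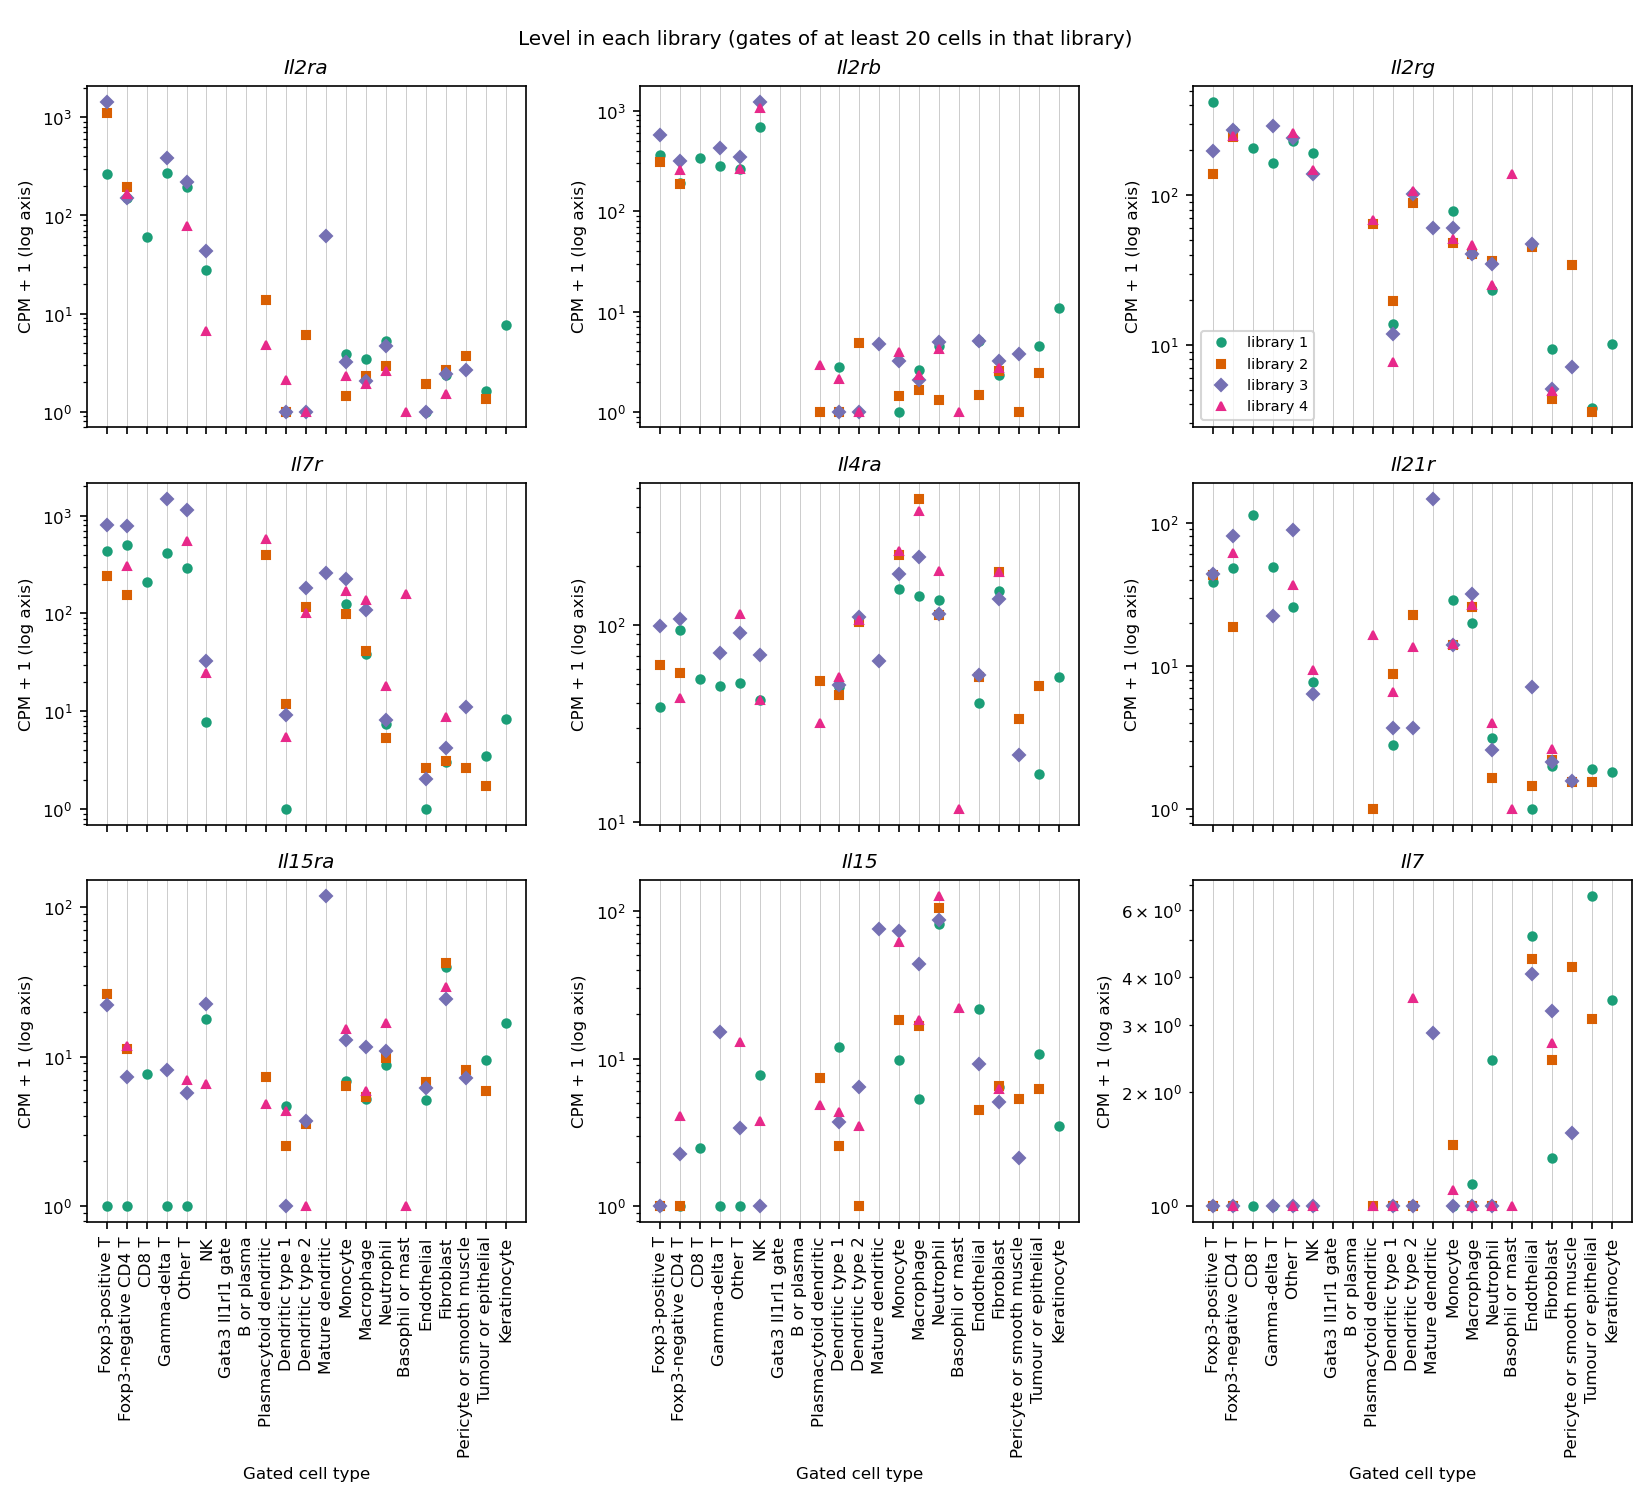
Level of each gene (1 panel each) as CPM + 1 on a log axis in each gate of at least 20 cells in a library, with 1 symbol per library. The 4 neutrophil points of Il15 lie between 80.6 and 125 CPM, whereas the 4 monocyte points spread from 8.79 to 71.6 CPM. Mature dendritic cells have a point for library 3 only.

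Il4ra, the chain shared by the receptors for IL-4 and IL-13, gave 47456 UMIs and was led by myeloid cells and fibroblasts. It stood at 263 CPM (257 to 269) in macrophages, 229 (225 to 235) in monocytes, 167 in fibroblasts, 129 in neutrophils and 106 in type 2 dendritic cells. T cell, NK and Gata3 Il1rl1 gates lay between 46.4 CPM in NK cells and 86.4 in other T cells, and B or plasma cells stood at 92.4 (39.9 to 182). Macrophages gave 141, 440, 223 and 381 CPM in libraries 1 to 4, and monocytes gave 152, 226, 182 and 238. Macrophages were thus above monocytes in libraries 2, 3 and 4 and below them in library 1, and without library 2 the pooled order turned, with macrophages at 209 CPM.

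The pooled level of Il4ra was 1.36 times as high in Arg1-positive macrophages as in the others, but the ratios inside libraries were 1.14, 1.06, 0.584 and 0.852. The intervals were apart in libraries 1, 3 and 4 and overlapped in library 2. The pooled direction therefore held in library 1 and was reversed in libraries 3 and 4. Fibroblasts were more even, with 149, 186, 136 and 185 CPM, and held 45.1% of all Il4ra UMIs. Tumour or epithelial cells stood at 20.3 CPM, with 16.6 in library 1 and 47.8 in library 2.

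Il21r, the receptor chain for the T cell cytokine IL-21, was highest in mature dendritic cells at 134 CPM (118 to 151) and CD8 T cells at 117 (100.1 to 137), whose intervals overlapped. Each rested on 1 library, with 146 CPM in library 3 for the dendritic cells and 112 in library 1 for the CD8 T cells. Without library 3 the mature dendritic value was 77.8 CPM. B or plasma cells stood at 92.4 CPM with a wide interval (39.9 to 182), other T cells at 60.8, Foxp3-negative CD4 T cells at 58.8 and Foxp3-positive T cells at 41.7.

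Macrophages had 22.1 CPM of Il21r, with 18.9, 24.8, 30.8 and 25.6 in libraries 1 to 4, and held 23.1% of its UMIs. Neutrophils had 1.59 CPM and a UMI in 0.312% of cells, against 15.0% of macrophages. T cell markers stood at 50.4 CPM in mature dendritic cells with Il21r and 19.2 without it. Their part in the result was not tested.

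Il15ra, the alpha chain that presents IL-15 to neighbouring cells, was led by mature dendritic cells and fibroblasts. Mature dendritic cells stood at 99.5 CPM (86.0 to 114), with 117 in library 3, but the value was 17.3 without library 3. Libraries 1 and 2 gave 16.5 and 20.8 CPM from 15 and 18 cells, with upper limits of 59.7 and 53.3 that lie below the interval of library 3 (101 to 135). Fibroblasts stood at 30.5 CPM (29.6 to 31.5), with 38.6, 41.3, 23.1 and 28.1 in libraries 1 to 4, and led libraries 1, 2 and 4. They held 64.2% of all Il15ra UMIs. Foxp3-positive T cells had 22.5 CPM, monocytes 13.3, neutrophils 10.6, tumour or epithelial cells 8.02 and macrophages 4.61. Type 1 dendritic cells, at a median depth of 15597 UMIs, had 2.44 CPM and a UMI in 3.75% of cells, against 49.5% of mature dendritic cells at 9067.

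Il15, the cytokine that sustains NK and memory CD8 T cells, was led by neutrophils in each of the 4 libraries. It stood at 99.0 CPM (94.5 to 104) in these cells, with 80.6, 103, 85.7 and 125 in libraries 1 to 4. Mature dendritic cells followed at 67.8 CPM (74.4 in library 3) and monocytes at 58.1. Monocytes were uneven, with 8.79, 17.1, 71.6 and 60.7 CPM, so libraries 3 and 4 are high. In library 3 the neutrophil interval (79.0 to 92.9) overlapped those of mature dendritic cells (61.7 to 89.0) and monocytes (63.1 to 80.9). Macrophages had 10.9 CPM, with 4.32, 15.5, 42.4 and 17.1 by library.

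More monocytes than neutrophils had a UMI of Il15 (28.4% against 16.2%), and since this goes against the CPM and the depths differ, no order is read from it. Thinned to 1000 UMIs, the shares were 5.05% and 9.19%. Among neutrophils, monocyte markers stood at 948 CPM in cells with Il15 and 620.0 in those without it. In libraries 2, 3 and 4 they stood at 625, 1006 and 1423 CPM with Il15 and 367, 616 and 1055 without it. In library 1 the values were 623 and 652. The part of these markers in the result was not tested. Foxp3-positive T cells had 0 UMIs of Il15 in 132 cells, which limits the share of cells with a UMI, at a median depth of 3810 UMIs, to 2.27% by the rule of 3 counts and says nothing of cells that express it below detection.

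Il15 and Il15ra, which act as a pair on the presenting cell, were found in the same cell in 46 of 220 mature dendritic cells (20.9%, 15.7 to 26.9). Of these, 45 lay in library 3. The share was 6.27% in fibroblasts, 4.04% in monocytes, 3.60% in tumour or epithelial cells and 0.534% in neutrophils. In mature dendritic cells Il15ra was found in 53.5% of the cells with Il15 and in 47.0% of those without it, whose intervals overlapped. In monocytes the values were 14.3% and 6.57% over all libraries, at median depths of 8797 and 7437 UMIs. Within library 4 they were 15.5% and 7.36%, with intervals that lay apart, and within library 3 they were 9.80% and 6.28%, with intervals that overlapped. Libraries 1 and 2 had 0 monocytes with both, and after thinning to 1000 UMIs only 5 monocytes in all held both.

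Il7, the cytokine that keeps naive T cells alive and is known as a product of stromal and epithelial cells, was sparse. It gave 777 UMIs in all, of which 466 lay in tumour or epithelial cells and 227 in fibroblasts. The level was 5.12 CPM (4.67 to 5.61) in tumour or epithelial cells, with 5.54 in library 1 and 2.104 in library 2, followed by endothelial cells at 3.37 (2.09 to 5.15), pericytes or smooth muscle cells at 2.91 and fibroblasts at 1.77. The first 2 overlapped in their intervals, and without library 1 the endothelial gate led. Endothelial cells gave 4.13, 3.46 and 3.09 CPM in libraries 1, 2 and 3, from only 2, 15 and 3 UMIs. Their intervals were 0.500 to 14.9, 1.94 to 5.71 and 0.637 to 9.03.

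The 1263 cells of the T, NK and Gata3 Il1rl1 gates had 0 UMIs of Il7, which allows up to 0.441 CPM over these gates. Monocytes, macrophages and neutrophils stood at 0.113, 0.0768 and 0.110 CPM. A gene on the opposite strand, Gm16685 (3159 UMIs), overlaps the start of Il7. Whether strand was used in counting was not stated, and the part of this overlap in the Il7 counts was not tested. Thinned to 1000 UMIs, 0.316% of tumour or epithelial cells had a UMI of Il7. The leading gate was recomputed at that depth and was another one, but no order is read from so few UMIs.

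Across the 9 genes, 4 (Il2ra, Il2rb, Il2rg and Il7r) had their highest pooled level in a T, NK or Gata3 Il1rl1 gate, beside 24.7% of the 15593 genes with at least 200 UMIs. For 3 of them (Il2ra, Il2rb and Il2rg) the leading gate was of this group in each library, beside 7.38% of those genes. The leading gate itself was the same in the pool and in each library for 1 of 9, Il15, beside 8.6%. This count depends on gate size, because gates under 20 cells in a library were not ranked there. Among the pooled leading gates of the 9 genes, only neutrophils (Il15) and macrophages (Il4ra) had at least 20 cells in each library. For the other genes the count therefore could not show whether the libraries agreed.

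The other genes of the pathway were looked up from a list of 20, of which 17 had at least 200 UMIs. Of these 17, 9 had their highest pooled level in a T, NK or Gata3 Il1rl1 gate, beside 24.7% of all genes with at least 200 UMIs. For 3 (Il2, Jak3 and Stat5b) the leading gate was of this group in each library, beside 7.38%. Among ligands, Il2 gave 353 UMIs, and the T, NK and Gata3 Il1rl1 gates held 36.9% of those in gated cells. It led in other T cells at 83.9 CPM, where 7 of 238 cells had a UMI. In these cells it stood at 248 CPM in library 1, 37.9 in library 3 and 0 in library 4, and at 30.6 without library 1 and 132 without library 3. Il4 led in basophils or mast cells at 342 CPM, with 137 in library 4, where 22 of the 72 cells lay, and 195 without library 3, where 16 cells gave 889 CPM. It was at 36.6 CPM in Foxp3-negative CD4 T cells. The part of the T cell markers held by the basophil or mast gate was not tested. Il13 stood at 731 CPM in the Gata3 Il1rl1 gate, from 6 of 44 cells, and at 168 without library 2, and it stood at 266 in Foxp3-negative CD4 T cells. Il9 and Il21 gave 4 and 6 UMIs.

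Among receptor chains off the list of 9, Il13ra1, the partner of Il4ra in the receptor for IL-13, was highest in neutrophils at 143 CPM and next in fibroblasts at 125. Il13ra2, a binding chain for IL-13 held to act as a decoy, stood at 46.5 CPM in fibroblasts and led in them in each library. Crlf2 was highest in type 2 dendritic cells at 142 CPM, with intervals that overlapped those of CD8 T cells at 123. Il9r gave 68 UMIs.

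Jak3, the kinase bound by the shared chain, stood at 50.7 CPM in Foxp3-positive and 48.0 in Foxp3-negative CD4 T cells. Jak1 was highest in NK cells (502 CPM), Stat5a and Stat5b in other T cells (80.3 and 167), Stat3 in mature dendritic cells (589) and Stat6 in neutrophils (77.4). Cish, a feedback gene induced by STAT5, was highest in the Gata3 Il1rl1 gate (375 CPM), Bcl2, a survival gene, in NK cells (334) and Socs1 in CD8 T cells (246). Pim1, a kinase gene downstream of many cytokines, stood at 3368 CPM in neutrophils and led there in each library, and Socs3 had its highest pooled level in macrophages (441 CPM), which led in none of the libraries. The pooled leaders of Socs1 and Cish also led in none, though the Gata3 Il1rl1 gate was too small to rank in any. Those of Jak1, Stat3 and Stat5a led in 1 library each. In library 1 Foxp3-negative CD4 T cells led Socs1 (394 CPM, against 249.7 in CD8 T cells) and Bcl2 (479, against 339 in NK cells). For Jak1, Jak3, Stat5a, Cish, Bcl2 and Socs1 the interval of the leading gate overlapped that of the next. Without library 1 Socs3 was at 204 CPM in macrophages and Socs1 at 157 in CD8 T cells, of which 18 were left. Without library 3 Stat5b was at 77.5 CPM in other T cells and Stat3 at 383 in mature dendritic cells.

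The genes most alike in pattern were sought over 51 pairs of a gate and a library, by Pearson's r of log2(CPM + 10), given as a description since the points share libraries, depth and free RNA. For Il2ra these were Gm37881 (r = 0.96), which lies inside Il2ra on the same strand, Icos (0.95) and Slamf1 (0.92). For Il2rb they were Sh2d2a (0.99), Gm19585 (0.97) and Trbc1 (0.97), the last a marker used for the T cell gate, and for Il2rg Rasal3, Itpkb and Akap13 (0.87 each). Il7r went with Sh3kbp1 (0.86), Irf4 (0.81) and Arl5c (0.80), and Il21r with Slamf1 (0.77), Uhrf2 (0.77) and Il7r (0.76).

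Il15 went with Ankrd33b (0.85), Fpr2 (0.83) and Pfkfb3 (0.82), and Il4ra with Soat1 (0.76), Mitf (0.76) and Mmp19 (0.75). Il7 went with Sept10, C530043K16Rik and Tjp1 (each 0.82), and Il15ra with Ndrg4 (0.72), Efna2 (0.70) and Gm45200 (0.69). Between the cytokines and their own receptor chains, r was 0.28 for Il15 with Il15ra, -0.41 for Il15 with Il2rb and -0.52 for Il7 with Il7r.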

How the data were processed

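The authors sorted CD45+ cells, made 10x Genomics libraries and deposited 1 matrix of raw UMI counts per gene and barcode. Cell Ranger is named as version 6.1.2 in the matrix header, 3.0.2 in the study's methods and 2.1.1 in the submitters' processing notes, which give build mm10 but no annotation. Whether strand was used in counting, or depth equalised between libraries, was not stated. All 55450 gene IDs matched GENCODE vM21 (GRCm38), the source of coordinates and coding sequences.

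Of 33064 barcodes, 32133 had at least 300 genes and at most 15% mt- UMIs, where the study states 15603 cells after the same filter. Analyses used Python 3.11.15 with numpy 2.4.6, scipy 1.17.1 and pandas 2.3.3. For 17 lineages, each marker's log1p(UMIs per 10000) was divided by its 90th percentile in positive cells, limited to 1.5 and averaged. A cell entered its highest lineage if at least 3 markers had a UMI (2 for lists under 6 markers) and the next score was at most 0.75 of it, which left 1675 cells with too few markers and 2945 between lineages ungated. T cells were split by Foxp3, by Cd8a or Cd8b1, by Cd4 and by at least 2 gamma-delta genes. Gates under 20 cells were not ranked. No doublet caller was run, and leaving out the highest 5% of UMI counts was tried. Thinning drew 1000 UMIs from 30243 cells and left out 1890 shallower ones. A count of 0 was read as allowing up to 3 counts.

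The 9 genes, the gene lists and the rule naming genes (the 9, the 20 pathway genes and the 3 most alike genes of each) were chosen with earlier results of these data known. Gate thresholds were set after marker levels, and the splits by Arg1 and the pairs Il15 with Il15ra and Il7r with Crlf2 after levels of the genes were seen. The code was tested on simulated data.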

Additional observations from a re-analysis of the deposited data

How the results depend on the processing

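No paired analysis was possible because no source ties the barcode suffixes to samples and no test was made. The leading gate of the 9 genes was recomputed under 12 alternatives. None changed at 500 genes, at 10% mt- UMIs or without the highest 5% of UMI counts, and 1 (Il7, to pericytes or smooth muscle cells) changed when another marker was asked of each gate. Weighting cells equally gave another leader for 2 genes (Il7 and Il7r) and thinning for 3 (Il2rg, Il7 and Il7r). The number with the same leader in the pool and in each library, 1, ranged from 1 to 2 when each library was left out. Without library 3, Il15ra was led by fibroblasts, Il21r by CD8 T cells and Il7r by the Gata3 Il1rl1 gate (3 genes), and mature dendritic cells stood at 17.3 CPM of Il15ra and 77.8 of Il21r, and gamma-delta T cells at 475 of Il7r. Without library 2, Il4ra was led by monocytes and Il7r by the Gata3 Il1rl1 gate. Without library 1, Il7 was led by endothelial cells, tumour or epithelial cells stood at 2.104 CPM of it and macrophages at 398 CPM of Il4ra. The share of Foxp3-positive T cells with the 3 IL-2 receptor chains, 50.0%, was 6.11% after thinning, which by construction removes UMIs. With a pseudocount of 1 CPM, 12 of the 27 most alike genes were kept. None of those of Il15ra was kept, and their r fell to 0.58 (Ndrg4), 0.55 (Efna2) and 0.55 (Gm45200). The level in the leading gate moved beyond its counting interval for 5 of 9 genes as a mean over cells, 6 of 9 after thinning, 4 of 6 as the median of libraries, and 5, 1, 5 and 3 of 9 without libraries 1, 2, 3 and 4. Alternatives chosen after seeing the data left out the Gata3 Il1rl1 and keratinocyte gates, which held markers of another lineage. By construction this gives Il2rg to Foxp3-negative CD4 T cells (258 CPM). Also chosen after seeing the data was leaving out each library for the other pathway genes. Levels near 1 CPM rest on few UMIs, and 4 libraries without known treatment allow no estimate of biological spread.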

Other observations

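Within 3 gates the levels were also split by a gene of the gate, a split chosen after levels had been seen. In monocytes Il15 stood at 18.3, 86.0 and 64.3 CPM in cells with a UMI of Chil3, a chitinase-like gene, in libraries 2, 3 and 4, and at 16.1, 60.1 and 55.0 CPM in those without it. The counting intervals overlapped in library 2 and were apart in libraries 3 and 4. In fibroblasts Il15 was at 4.60, 3.58, 3.19 and 4.04 CPM in cells with a UMI of Lrrc15, a gene of tumour-associated fibroblasts, in libraries 1 to 4, and at 11.6, 7.55, 4.26 and 5.59 CPM in those without it, with intervals apart in library 2. Il15ra in the same fibroblasts had no common direction, with ratios of 0.496, 1.46, 1.56 and 0.952. In neutrophils with a UMI of Retnlg, which is high in mature neutrophils, Il15 stood at 65.5, 90.8, 83.2 and 127 CPM, against 106.5, 107.1, 87.6 and 123 CPM in those without it. The counting intervals of the 2 sides overlapped in each of libraries 1 to 4.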
